A study of Mus musculus with 22 samples.

Results

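The expression profiles of 2 sorted populations of mouse bone marrow white cells were compared, which share the surface phosphatase CD45 and differ in the surface antigen Sca1. One population carried both antigens (OGCsort +/+, samples 1, 5 and 6) and the other carried CD45 alone (OGCsort +/-, samples 1, 7 and 9). The groups were read from the sample titles, with the signs in the order CD45 and then Sca1 that the array run records give. This makes 6 of the 11 RNA samples of the series and 12 of its 22 arrays, since each sample was hybridized once to each chip of the Affymetrix MOE430A and MOE430B pair, here called chip A and chip B. Both groups came from marrow stained with antibodies to both antigens and separated on a MoFlo cell sorter, with a stated purity of 90%. The remaining OGCsort samples, 3 without either antigen (-/-), entered the test only to estimate the spread. Strain, age and sex of the mice and any pooling of animals are not given in the sources used here. Each p-value here therefore reflects only how far samples differed within groups. For limma this spread is pooled over the +/+, +/- and -/- groups, so a large limma p-value need not come from spread within +/+ or +/-.

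Sca1 is a small lipid-anchored protein of the Ly6 family. In mouse marrow it marks blood stem cells and early progenitors, and it is also found on many T cells, on plasmacytoid dendritic cells, which are the main producers of type I interferon, and on part of the B cells. Maturing granulocytes, most monocytes and B cell precursors carry CD45 and little or no Sca1. A sort on these antigens therefore divides marrow into mixed populations and does not isolate a single cell type.

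Ptprc, the gene of CD45, was high in both groups. Its chip A probe set gave signals of 10327, 8780 and 12026 in +/+ samples and 7213, 8516 and 7885 in +/- samples. All +/+ values lay above all +/- values, but the log2 fold change, +/+ minus +/-, was 0.39 (SE 0.48, limma adjusted p = 0.973), and the exact, two-sided permutation test gave p = 0.1, the smallest value possible for 3 against 3 samples. Its chip B probe set gave a log2 fold change of 0.22 (limma adjusted p = 0.988, exact permutation p = 0.6). No probe set is named for Ly6a, the gene of Sca1, alone, so the antigen that separates the groups was not read by name. Signals are rescaled array units, and one above 100 was taken as measurable. That held for 64.8% to 70.6% of probe sets on the 6 arrays of chip A and for 73.5% to 80% on those of chip B.

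In each group sample 1 had the highest Gapdh 3′/5′ ratio, the signal at the 3′ end of that control transcript over that at its 5′ end, which grows with RNA degradation. On chip A it was 24.8, 16.8 and 9.14 in +/+ samples 1, 5 and 6, and 19.6, 13.8 and 14.2 in +/- samples 1, 7 and 9. The like ratio of actin on chip A was 12.9, 9.23 and 4.06 in +/+ samples and 7.18, 6.22 and 7.2 in +/- samples, so that it was highest in +/+ sample 1 and +/- sample 9. On chip B the actin ratio was 11.5, 9.28 and 4.29 in +/+ samples and 7.51, 6.16 and 6.31 in +/- samples, highest in sample 1 of both groups. The groups were also unevenly spread over the wash runs, which were inferred from the recorded hybridization times. On chip A, +/+ samples 1 and 5 were washed in one run with the -/- samples, and +/+ sample 6 in another run with all 3 +/- samples. On chip B all 3 +/+ samples and +/- samples 7 and 9 shared a run, while +/- sample 1 was in a later one. The run record of +/- sample 1 also carries a bracketed 2 whose meaning is not given.

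Of 40405 probe sets tested over both chips, 44 (0.109%) passed a limma adjusted p of 0.05. Of these, 30 (0.0742% of those tested) were higher and 14 (0.0346%) were lower in +/+, and in all 44 the samples of the groups did not overlap. Chip A gave 37 and chip B gave 7. An unadjusted p under 0.05 was reached by 2685 probe sets. Of the 44, 37 carry a single gene name and stand for 31 genes. With each gene reduced to 1 probe set, 14 of 16997 genes rose (0.0824%) and 8 fell (0.0471%), while 1176 (6.92%) were without overlap and higher and 1247 (7.34%) were without overlap and lower. The median log2 fold change over all genes was -0.03.

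**Figure D1:**
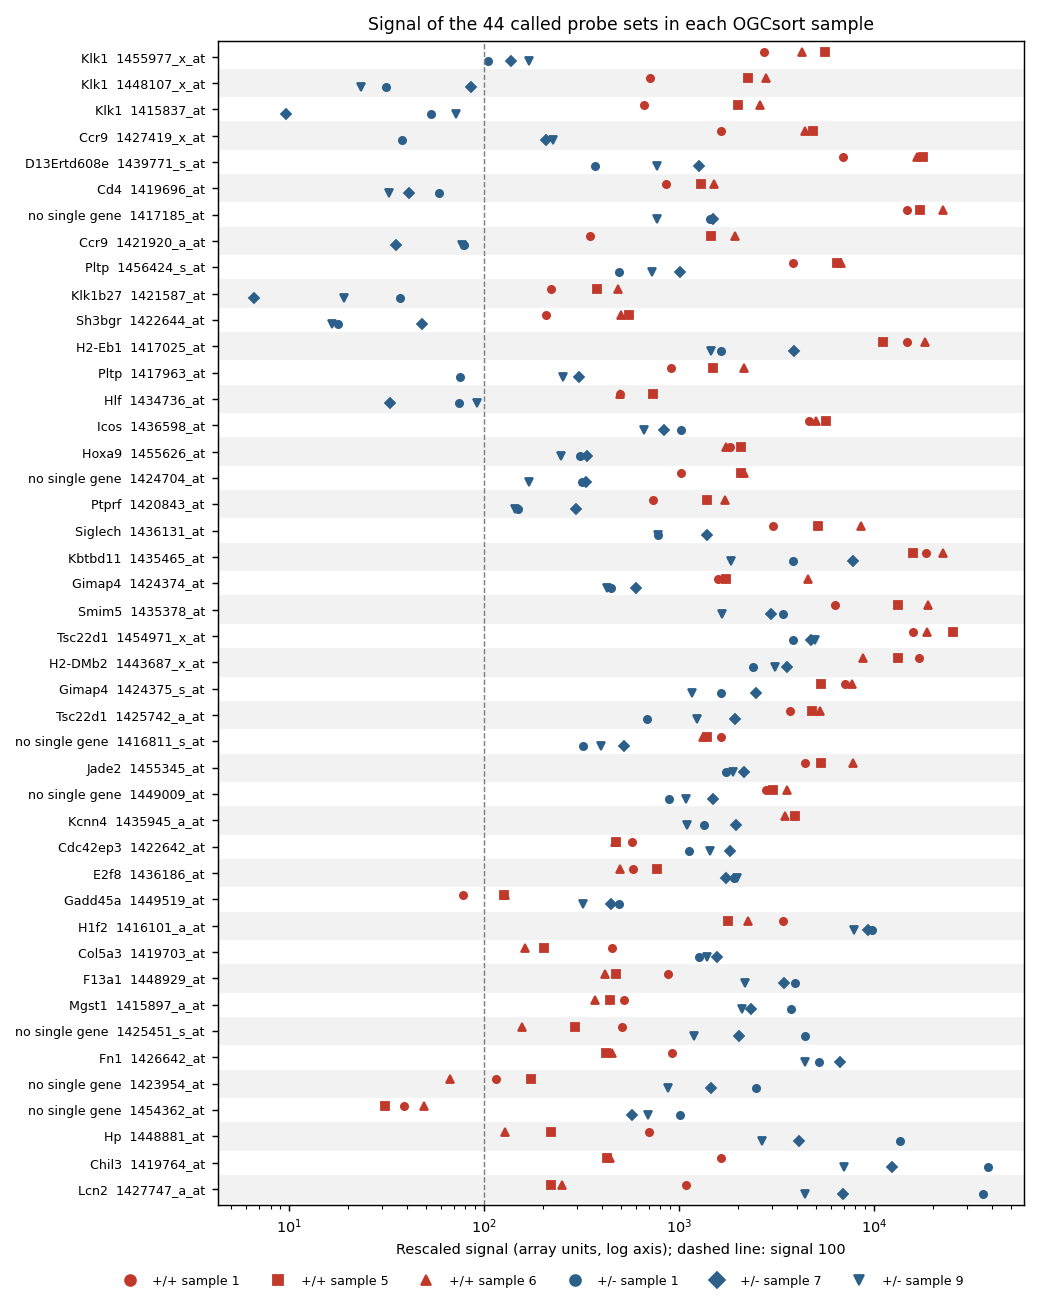
Rescaled signal (log axis) of each of the 44 probe sets that passed, ordered by log2 fold change, with the 3 +/+ samples in red above the 3 +/- samples in blue in each row. In every row the red and blue symbols are separated, and +/- sample 1 stands far above +/- samples 7 and 9 in Lcn2, Chil3 and Hp.

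The most significant difference was that of a chip A probe set with no gene name in the probe tables, 1417185_at. It gave 14745, 17223 and 22533 in +/+ samples, against 1430, 1488 and 770 in +/- samples. The groups were far apart in every sample, with a 14.8-fold higher signal in +/+ (limma log2 fold change 3.89 with an SE of 0.28, adjusted p = 5.3e-05). It is given here to account for all 44, outside the rule for named genes and after its values were seen. Among the other probe sets that passed, 6 had no single gene name, of which 3 were higher and 3 lower in +/+.

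Of the 28 gene lists, that of plasmacytoid dendritic cells had the highest median. Of 31 listed genes 25 were tested, of which 5 rose and none fell, and 17 were higher without overlap and none lower. The median log2 fold change of the 25 was 1.49, against -0.03 over all genes. Siglech, the sialic acid-binding receptor that defines these cells in the mouse, had signals of 3031, 5173 and 8594 in +/+ samples, against 778, 1378 and 779 in +/- samples. Its lowest +/+ value, that of sample 1, was still above the highest +/- value, and the difference was 5.3-fold (limma log2 fold change 2.40, SE 0.36, adjusted p = 0.0181). In bulk RNA such as this, more cells of a type and more RNA per cell cannot be told apart.

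Ccr9, a chemokine receptor of thymocytes and plasmacytoid dendritic cells, had signals of 1641, 4851 and 4436 in +/+ samples and 37.7, 208 and 226 in +/- samples. It was 20.4-fold higher in +/+ (log2 fold change 4.35, limma adjusted p = 0.00517). A second Ccr9 probe set also passed, with a signal under 100 in all 3 +/- samples and an at least 7.84-fold higher level in +/+ (limma adjusted p = 0.0403). The remaining 3 Ccr9 probe sets were dim, with no value above 348, and did not pass (log2 fold changes of 0.10, 0.80 and 1.34).

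Klk1, a tissue kallikrein and so a secreted serine protease, had the largest log2 fold changes among the probe sets that were higher. The probe set 1455977_x_at gave 2704, 5619 and 4244 in +/+ samples, against 105, 137 and 170 in +/- samples. The 24.2-fold higher signal in +/+ (limma log2 fold change 4.60, SE 0.36, adjusted p = 9.14e-05) was matched by 2 further chip A probe sets, both under 100 in every +/- sample. For 1415837_at the +/+ signals were 656, 1997 and 2582, so that Klk1 was at least 11.7-fold higher in +/+ (limma adjusted p = 0.00912). The chip B probe set of Klk1 did not differ in this way, with 2536, 2029 and 2148 in +/+ samples and 1467, 2220 and 1792 in +/- samples (limma adjusted p = 0.94). Its relative Klk1b27 was at least 2.85-fold higher in +/+ (limma adjusted p = 0.0497). The kallikreins of this family are near-identical in sequence, so which member a probe set measures is uncertain. Within the list, Klk1b11 and Klk1b5 overlapped between the groups (log2 fold changes of 0.40 and -0.65).

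The membrane protein gene Smim5 gave 6256, 13226 and 18896 in +/+ samples and 3412, 2939 and 1661 in +/- samples, a 4.5-fold higher signal in +/+ (limma adjusted p = 0.0444). Several defining genes were higher without passing. Tcf4, the transcription factor on which plasmacytoid dendritic cells depend, had 2966, 4447 and 7259 in +/+ samples and 1169, 1140 and 1558 in +/- samples (limma adjusted p = 0.538). Irf8, an interferon regulatory factor, had 5221, 9612 and 11074 in +/+ samples and 1751, 2990 and 3152 in +/- samples (limma adjusted p = 0.151). Bst2, the interferon-induced tetherin, ranged from 547 to 4701 in +/+ samples and from 64.3 to 512 in +/- samples (limma adjusted p = 0.388). All of these were without overlap. The exception among the defining genes was Spib, an Ets factor shared with B cells, with 3328, 4197 and 6455 in +/+ samples and 2963, 6428 and 10481 in +/- samples (log2 fold change -0.38).

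The plasmacytoid dendritic cell genes varied together among the +/+ samples. Sample 1 was the lowest of the +/+ samples in 22 of the 25 genes, against 33.9% of all genes, and sample 6 was the highest in 17. The summed signal of the list was 64327, 106366 and 131883 in +/+ samples 1, 5 and 6, and 33145, 59147 and 45234 in +/- samples 1, 7 and 9. Sample 1 also had the highest Gapdh 3′/5′ ratio, whose part in this was not tested. The number of calls changed when samples were left out. Without +/+ sample 5, or without +/+ sample 6, none of the 25 passed, 1 passed without +/- sample 1 and 2 without +/- sample 9. Leaving out -/- sample 4 or -/- sample 5, which changes only the estimated spread, gave 10 and 3. Siglech lost its call without +/+ samples 5 or 6 or without +/- samples 1 or 9 (limma adjusted p of 0.087 to 0.178), with a fold of 4.1 to 6.88 over the 6 samples left out in turn. Ccr9 lost its call without +/+ samples 5 or 6 (0.0596 and 0.0918), while Ccr9 was 13.3-fold higher without +/- sample 1. Smim5 kept its call only without +/+ sample 1, and Klk1b27 lost it without any of the 6. For Klk1, 1455977_x_at passed in each case and 1415837_at did not without +/+ samples 5 or 6 or +/- sample 1 (0.0606 to 0.113).

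The T cell coreceptor gene Cd4, which mouse plasmacytoid dendritic cells also carry, was among the most stable differences. It had signals of 859, 1291 and 1514 in +/+ samples, against 58.8, 41 and 32.4 in +/- samples. All 3 +/- values were below the measurable level, so Cd4 was at least 9.25-fold higher in +/+ (limma log2 fold change 4.02 with an SE of 0.40, adjusted p = 0.000977). Of the 28 tested T cell genes Cd4 alone rose and none fell, 15 were higher and 1 was lower without overlap, and the median log2 fold change was 1.00. The genes of the CD3 complex, which signals for the T cell receptor, did not pass. Cd3g had 614, 802 and 771 in +/+ samples and 162, 391 and 52.9 in +/- samples (limma adjusted p = 0.297), and Cd3d had 969, 591 and 754 in +/+ samples and 212, 391 and 125 in +/- samples (limma adjusted p = 0.26). Cd3e overlapped between the groups, with 713 in +/- sample 1. Cd8a, the coreceptor of cytotoxic T cells, had 389, 561 and 811 in +/+ samples and 143, 237 and 203 in +/- samples (limma adjusted p = 0.336).

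Icos, a costimulatory receptor of activated T cells, passed with its chip B probe set, which gave 4628, 5685 and 5022 in +/+ samples and 1017, 831 and 655 in +/- samples. The values were tight within each group and 6-fold higher in +/+ (log2 fold change 2.59, limma adjusted p = 0.00219). Both chip A probe sets of Icos were dimmer and higher in +/+ without overlap but did not pass (log2 fold changes of 1.72 and 2.07). Of 22 tested NK and cytotoxic cell genes limma called none (4 at an unadjusted p under 0.05), with 5 higher and 5 lower without overlap and a median of 0.10. Over all genes 6.92% were higher and 7.34% lower without overlap. Gzma, a cytotoxic granule protease, had 742, 477 and 376 in +/+ samples and 1491, 2476 and 1712 in +/- samples (limma adjusted p = 0.476).

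Antigen presentation genes of MHC class II were higher in +/+ in most cases. These genes encode the paired chains that show peptides to CD4 T cells and the proteins that load them, and they are active in B cells and dendritic cells. H2-Eb1, a beta chain, had signals of 14638, 11091 and 18234 in +/+ samples, against 1627, 3883 and 1448 in +/- samples. It was 6.77-fold higher in +/+ (log2 fold change 2.76, SE 0.40, adjusted p by limma 0.0181), and +/- sample 7 was the highest of its group. H2-Eb1 was the 1 gene of the 10 tested that rose and none fell, 8 were higher without overlap, and the median log2 fold change was 1.38. H2-Ab1, the other beta chain, had 9811, 10686 and 13129 in +/+ samples and 1793, 2991 and 1059 in +/- samples (limma adjusted p = 0.0823). H2-Aa, an alpha chain, had 56681, 56852 and 33373 in +/+ samples and 13296, 18265 and 12355 in +/- samples (limma adjusted p = 0.573). Cd74, the invariant chain, ranged from 7795 to 11350 in +/+ samples and from 2265 to 4621 in +/- samples (limma adjusted p = 0.12).

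H2-DMb2, part of the peptide-loading complex, passed with 1 of its 3 probe sets. That set, on chip B, gave 16893, 13217 and 8778 in +/+ samples and 2398, 3562 and 3099 in +/- samples, 4.17-fold higher in +/+ (limma adjusted p = 0.0444). A second set had a log2 fold change of 1.64 (limma adjusted p = 0.27), and the dim chip A set overlapped between the groups, with 0.08. The call of H2-Eb1 was lost without any 1 of the samples other than +/- sample 7 (limma adjusted p of 0.0596 to 0.187), and that of H2-DMb2 without any 1 of the 6 (0.104 to 0.273). The class I antigen presentation genes, 14 tested, had a median of 0.46 with 4 higher without overlap, and limma called none of them (0 at an unadjusted p under 0.05).

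The promoters of 3 of these genes are shown because most of the class II genes were higher together in +/+. The motif searched was TGATTGG, the core of the Y box of class II promoters, on either strand (CCAATCA on the other), in the 250 bases before the annotated start of RefSeq genes on GRCm38.p6. It was found for 6 of the 7 class II genes of the list that could be matched, and in 7.23% of 32851 promoters. For the window printed, from 130 to 31 bases before the start, the share of all promoters was 4.45%. Each sequence runs 5′ to 3′ along its gene, with the motif in capitals. H2-Eb1 lies on the plus strand (chr17:34305737-34305836), H2-DMb2 on the plus strand (chr17:34145119-34145218) and H2-Aa on the minus strand (chr17:34287854-34287953).
H2-Eb1: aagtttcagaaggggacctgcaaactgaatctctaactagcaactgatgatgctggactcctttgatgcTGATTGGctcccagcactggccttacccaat
H2-DMb2: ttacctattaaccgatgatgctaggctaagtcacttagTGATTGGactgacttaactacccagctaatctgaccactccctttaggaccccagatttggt
H2-Aa: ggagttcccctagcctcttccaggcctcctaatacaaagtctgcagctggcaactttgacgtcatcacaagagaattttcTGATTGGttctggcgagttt
The first base of the motif lies 61 bases before the start in H2-Eb1, 92 in H2-DMb2 and 50 in H2-Aa. The match is a description of the sequence, and nothing in these data measures what binds there.

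All 8 Gimap genes, a cluster of small GTPases that act in the survival of lymphocytes, were higher in +/+ without overlap, with a median log2 fold change of 1.26. Gimap4 alone passed. It had 1575, 1737 and 4584 in +/+ samples and 444, 600 and 426 in +/- samples, 4.57-fold higher in +/+ (limma adjusted p = 0.0497), and a second probe set was 3.89-fold higher (limma adjusted p = 0.027). Sample 6 carried the highest Gimap4 signal of the +/+ group with the first probe set. That probe set lost its call without any 1 of the 6 samples (limma adjusted p of 0.0524 to 0.254) and the second without any but +/- sample 7 (0.0897 to 0.222). Gimap8 had 6647, 5763 and 10761 in +/+ samples and 1062, 4120 and 2002 in +/- samples (limma adjusted p = 0.135), and the other 6 had log2 fold changes of 0.96 to 1.53.

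The lowest median of the 28 lists belonged to the late granule genes of neutrophils, the proteins of secondary and tertiary granules and of the mature cell. Of 27 listed genes 19 were tested, of which 3 fell in +/+ and none rose, 17 were lower without overlap, and the median log2 fold change was -3.35. Lcn2, an iron-binding antibacterial protein, had signals of 1081, 219 and 249 in +/+ samples, against 36215, 6907 and 4431 in +/- samples. Sample 1 was the highest of both groups, and Lcn2 was 24.3-fold lower in +/+ (limma log2 fold change -4.60 with an SE of 0.78, adjusted p = 0.0471). Chil3, a chitinase-like protein, had 1627, 428 and 441 in +/+ samples and 38180, 12339 and 6984 in +/- samples, 20.9-fold lower in +/+ (limma adjusted p = 0.0497). Hp, the haemoglobin-binding haptoglobin, had 702, 220 and 127 in +/+ samples and 13617, 4099 and 2646 in +/- samples, 17.2-fold lower in +/+ (limma adjusted p = 0.0444). Even the highest +/+ value of each was well below the lowest +/- value.

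Other genes of the list had log2 fold changes of similar size without passing. The antimicrobial peptide gene Camp had 2452, 449 and 224 in +/+ samples and 70709, 14316 and 7463 in +/- samples (limma log2 fold change -4.87 with an SE of 1.05, adjusted p = 0.111). S100a9, a calcium-binding alarmin, had 3349, 310 and 402 in +/+ samples and 68945, 15277 and 9421 in +/- samples (limma adjusted p = 0.0772), and its partner S100a8 had 5121, 639 and 571 in +/+ samples and 67013, 27629 and 14098 in +/- samples (limma adjusted p = 0.0951). Sample 1 was the highest of the +/- samples in 19 of the 19 genes and the highest of the +/+ samples in 17, against 41% and 38.3% of all genes. The summed signal of the 19 genes was 38957, 9731 and 11695 in +/+ samples 1, 5 and 6, against 509613, 197122 and 113677 in +/- samples 1, 7 and 9. Sample 1 of each group carries the same sort number, 1, in its title and also had the highest Gapdh 3′/5′ ratio of its group. The actin ratio on chip A was highest in +/+ sample 1 and, by little, in +/- sample 9. On chip B it was highest in sample 1 of both groups. The parts of RNA quality and of the shared sort in the result were not tested. Without sample 1 of both groups the mean sum in +/- was 14.5 times that in +/+, against 13.6 times with all samples. The 17 of 19 genes lower without overlap stayed so, which is fixed in advance when samples are left out. None of the 19 passed without these samples (limma adjusted p of 0.116 for Lcn2, 0.141 for Hp and 0.223 for Chil3).

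Likewise none of the 19 passed without +/+ sample 5, +/+ sample 6, +/- sample 1, +/- sample 7 or -/- sample 5. Leaving out +/+ sample 1 gave 3 calls, with Lcn2 and Hp but not Chil3 among them. Leaving out +/- sample 9 gave 1, which was none of Lcn2, Chil3 and Hp. Leaving out -/- sample 4 or -/- sample 8, which changes only the estimated spread, gave 11 and 6. With the sort number as a random replicate block 11 passed. The 6 samples of both groups alone gave 11. None of the 19 passed with the CPGSE +/+ samples, a separate set of +/+ sorts, in place of or together with OGCsort +/+. CPGSE samples 4 and 6 gave 284 and 6522 for Lcn2, 1790 and 12328 for Chil3, and 634 and 2217 for Hp. CPGSE sample 6 lay within the +/- range for Lcn2 and Chil3 and below it for Hp. Without +/- sample 1 Lcn2 was 13-fold, Chil3 13.1-fold and Hp 10.8-fold lower in +/+, and without +/+ sample 1 they were 39.2-fold, 32-fold and 26.6-fold lower. Over the samples of both groups left out in turn, the limma adjusted p of the calls that were lost lay between 0.0503 and 0.308.

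The primary granule genes, which neutrophil precursors express first, showed the same direction with smaller differences. Of 10 tested limma called none (7 at an unadjusted p under 0.05), 7 were lower in +/+ without overlap and the median was -1.59. Mpo, the myeloperoxidase, had 3979, 2445 and 1599 in +/+ samples and 18728, 11686 and 9951 in +/- samples (limma adjusted p = 0.103). Elane, the neutrophil elastase, had 171, 196 and 227 in +/+ samples and 603, 870 and 753 in +/- samples (limma adjusted p = 0.0921).

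Of 30 tested monocyte and macrophage genes 2 fell and none rose, with 3 higher and 6 lower without overlap and a median of -0.36. For all genes the shares without overlap were 6.92% higher and 7.34% lower. Fn1, fibronectin, which monocytes express, had signals of 917, 422 and 450 in +/+ samples and 5230, 6680 and 4396 in +/- samples. The groups were widely separated, and Fn1 was 9.09-fold lower in +/+ (limma log2 fold change -3.18 with an SE of 0.29, adjusted p = 0.000511). A second, dim Fn1 probe set overlapped between the groups (log2 fold change -1.24). F13a1, the coagulation factor XIII A chain, had 872, 473 and 415 in +/+ samples and 3903, 3437 and 2184 in +/- samples, 5.29-fold lower in +/+ (limma adjusted p = 0.0239). Its call was lost without +/+ samples 5 or 6 or +/- samples 1 or 7 (limma adjusted p of 0.104 to 0.187). Other monocyte genes pointed both ways. Csf1r, the receptor for the macrophage growth factor, overlapped, with 15649, 8600 and 5854 in +/+ samples and 14663, 19625 and 12215 in +/- samples. C1qa, a complement chain of macrophages, was at least 2.26-fold higher in +/+ without passing (limma adjusted p = 0.247).

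Genes of B cell progenitors and of mature B cells had medians of opposite sign, and limma called none of either list (10 of 22 and 7 of 18 at an unadjusted p under 0.05). Of the 22 progenitor genes 11 were lower in +/+ without overlap and none higher, with a median of -0.63. Rag1, an enzyme of antigen receptor gene assembly, had 344, 580 and 530 in +/+ samples and 1392, 2366 and 3122 in +/- samples (limma adjusted p = 0.498). Vpreb3, a protein of B cell precursors, had 909, 894 and 1098 in +/+ samples and 1915, 3436 and 5923 in +/- samples (limma adjusted p = 0.561). Dntt, which adds bases at receptor gene joints, overlapped, with 731, 905 and 587 in +/+ samples and 62.7, 298 and 608 in +/- samples. Of the 18 mature B cell genes 6 were higher without overlap and none lower, with a median of 0.46. Fcer2a, the low-affinity IgE receptor, had 2137, 1126 and 1120 in +/+ samples and 643, 573 and 494 in +/- samples (limma adjusted p = 0.176), whereas Ms4a1, the gene of CD20, overlapped (log2 fold change 0.06). Without sample 1 of both groups the mature genes without overlap were 8 higher and 5 lower. Smaller groups separate more easily, and the share over all genes was not computed for this set. No change is read from these counts. Jchain, the joining chain of secreted antibody, had 13769, 954 and 1004 in +/+ samples and 223, 167 and 123 in +/- samples (limma adjusted p = 0.105), and +/+ sample 1 alone was above 1004.

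Stem and progenitor genes did not move as a block. Of 41 tested, limma called none with the probe set chosen for the gene (12 at an unadjusted p under 0.05), 14 were higher and 3 were lower without overlap, and the median was 0.31. Hlf, a transcription factor of stem cells, and the homeobox gene Hoxa9 passed with another probe set. Hoxa9 gave 1827, 2063 and 1732 in +/+ samples, against 310, 336 and 248 in +/- samples, with little spread in either group and a 5.8-fold higher signal in +/+ (log2 fold change 2.54, limma adjusted p = 0.027). Hlf gave 499, 733 and 496 in +/+ samples and 74.3, 32.8 and 91.3 in +/- samples, so that it was at least 4.54-fold higher in +/+ (limma adjusted p = 0.0436). The chosen probe sets were also higher without overlap, with log2 fold changes of 1.09 for Hoxa9 (limma adjusted p = 0.439) and 1.57 for Hlf (limma adjusted p = 0.0843). Both calls were lost without any 1 of the 6 samples (limma adjusted p of 0.0753 to 0.287). Meis1, a cofactor of Hox proteins, had 343, 443 and 314 in +/+ samples and 28.1, 128 and 51.6 in +/- samples (limma adjusted p = 0.169). Kit, the stem cell factor receptor, overlapped, with 607, 527 and 601 in +/+ samples and 604, 357 and 173 in +/- samples. Myb, needed for blood progenitors, was lower without overlap, with 2632, 3407 and 3475 in +/+ samples and 6203, 8575 and 7622 in +/- samples (limma adjusted p = 0.935).

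**Figure D2:**
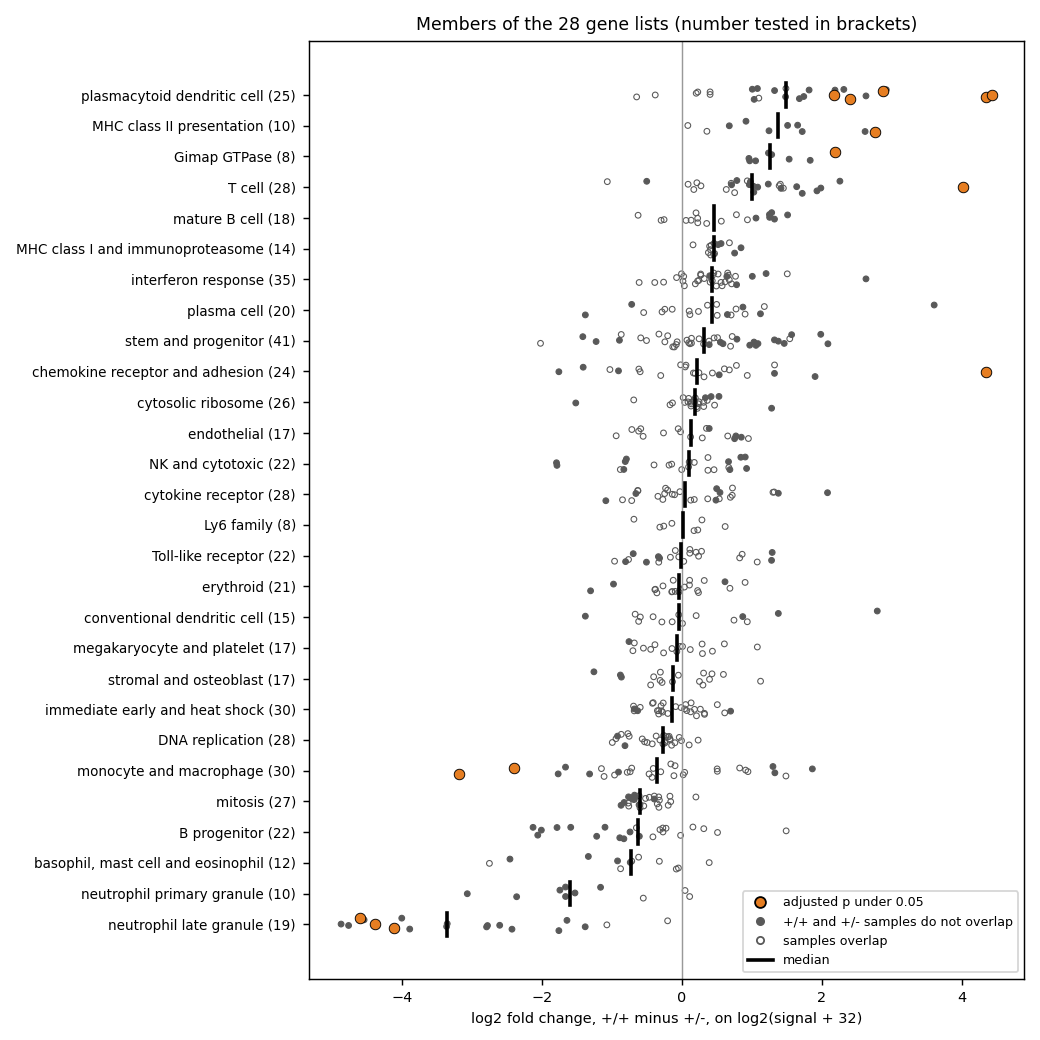
Log2 fold change, +/+ minus +/-, of each tested member of the 28 gene lists, with lists ordered by their median (black bar), orange points for members that passed, filled grey points for members without overlap and open points for the rest. Medians run from 1.49 for plasmacytoid dendritic cell genes to -3.35 for late granule genes of neutrophils.

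No gene of the cell division lists passed. Of 27 tested mitosis genes limma called none (11 at an unadjusted p under 0.05), 11 were lower without overlap and none higher, and the median was -0.60. Top2a, a topoisomerase of dividing cells, had 1712, 2209 and 2112 in +/+ samples and 2985, 3184 and 4180 in +/- samples (limma adjusted p = 0.388), while Mki67 overlapped. The 28 DNA replication genes had a median of -0.26 with 2 lower without overlap, and limma called none (3 at an unadjusted p under 0.05). The share of all genes lower without overlap was 7.34%, near that of this list. A pair of genes known from cycling cells passed outside these lists. E2f8, a repressor of the E2F family, had 581, 771 and 495 in +/+ samples and 1911, 1745 and 1966 in +/- samples, 2.99-fold lower in +/+ (limma adjusted p = 0.0154). A second, dim E2f8 probe set overlapped between the groups (log2 fold change -0.25). H1f2, a linker histone, had 3384, 1777 and 2241 in +/+ samples and 9708, 9315 and 7827 in +/- samples, 3.71-fold lower (limma adjusted p = 0.0104). Its other probe sets did not pass (log2 fold changes of -1.12 and -0.19). E2f8 lost its call without +/+ samples 1 or 6 or +/- samples 1 or 9, and H1f2 without +/+ samples 5 or 6 or +/- sample 1 (limma adjusted p of 0.0503 to 0.113).

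The remaining genes that passed belong to no list. Higher in +/+ were Pltp, the phospholipid transfer protein, by 7.47-fold and 6.69-fold with its probe sets (limma adjusted p = 0.011 and 0.0444), and Tsc22d1, a leucine zipper regulator, by 4.35-fold and 3.79-fold with 2 of its 7 (limma adjusted p = 0.00219 and 0.0403). The brighter Tsc22d1 probe set gave 15798, 25285 and 18567 in +/+ samples and 3807, 4708 and 4937 in +/- samples. Its others had log2 fold changes of -0.84 to 2.32. Ptprf, a receptor tyrosine phosphatase, was 5.68-fold higher with 1 of its 3 probe sets (limma adjusted p = 0.0444). Of its others, 1 was higher without overlap and did not pass (log2 fold change 2.31), and 1 overlapped with the opposite sign (-0.72). The gene D13Ertd608e, named by a clone only, was 17-fold higher (limma adjusted p = 0.00219), Kbtbd11 4.9-fold (limma adjusted p = 0.044), Jade2 2.93-fold (limma adjusted p = 0.0497) and Kcnn4, a calcium-activated potassium channel, 2.62-fold (limma adjusted p = 0.0497). Sh3bgr was under 100 in all +/- samples and at least 3.19-fold higher (limma adjusted p = 0.0497), while another of its probe sets was lower without overlap and did not pass, with 226, 278 and 261 in +/+ samples and 729, 349 and 357 in +/- samples (log2 fold change -0.76). The other probe sets of Jade2 (-0.83), Kbtbd11 (-0.23 to 0.31) and Kcnn4 (0.79) overlapped between the groups. Lower in +/+ were Mgst1, a membrane glutathione transferase, by 5.66-fold, Col5a3, a collagen chain, by 5.12-fold, Gadd45a, a damage-induced regulator, by 3.17-fold and Cdc42ep3, an effector of Cdc42, by 2.74-fold (limma adjusted p of 0.0239 to 0.0497). A second probe set of Mgst1 (log2 fold change -0.84) and of Col5a3 (-0.50) overlapped between the groups. That of Cdc42ep3 (-1.38) was lower without overlap and did not pass. D13Ertd608e and the brighter Tsc22d1 probe set kept their calls without any 1 of the 6 samples. The others named here lost theirs without at least 1 of them (limma adjusted p of 0.0503 to 0.363).

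Markers of other marrow cells were read beside these groups. By limma none of their genes passed, with 17 of the 118 genes of these 7 lists at an unadjusted p under 0.05. They were the erythroid (21 tested, median -0.04), megakaryocyte and platelet (17, -0.07), endothelial (17, 0.12), stromal and osteoblast (17, -0.13), basophil, mast cell and eosinophil (12, -0.73), conventional dendritic cell (15, -0.04) and plasma cell (20, 0.43) lists. Mcpt8, a basophil protease, had 1255, 197 and 68.8 in +/+ samples and 2477, 1390 and 1342 in +/- samples (limma adjusted p = 0.289), again highest in sample 1 of each group. Clec10a, a lectin of dendritic cells and macrophages, had 543, 1378 and 1827 in +/+ samples and 132, 320 and 46.8 in +/- samples (limma adjusted p = 0.0951). Of 35 interferon response genes 6 were higher without overlap and none lower, against 6.92% and 7.34% of all genes, with a median of 0.44. Of 14 listed genes of the Ly6 family 8 were tested, and all 8 overlapped between the groups (median 0.02). Ly6a, the gene of Sca1, is not among the 8, because no probe set is named for it alone.

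The groups were unevenly spread over the chip A wash runs, and values within a run are given for that reason. The run that held both groups had 1 +/+ sample, sample 6, against the 3 +/- samples, so its +/+ side has no spread of its own. No count of probe sets passing within that run is therefore given. In 31 of the 37 chip A probe sets that passed, sample 6 differed from the +/- mean at least as much as the mean of samples 1 and 5 did, on the log2 scale. The 37 had been chosen with sample 6 in the fit and without overlap, so their direction within the run was fixed by that choice, and the part of the wash run was not tested. On chip B, within the run and station that held +/+ samples 5 and 6 and +/- samples 7 and 9, limma called none (1363 at an unadjusted p under 0.05). That fit used an adjusted p of 0.05 over chip B alone, not over both chips. With the wash run, and on chip B the station, as a block in the fit, 6 probe sets passed. They were 1417185_at, both Klk1 probe sets ending in _x_at on chip A, Cd4, Fn1 and Gimap4 with 1424374_at. Without the block 44 passed. All 6 are on chip A, where +/+ samples 1 and 5 share no run with +/- samples. There the block leaves the log2 fold change of +/+ sample 6 alone against the 3 +/- samples, so it cannot check 3 against 3. For Gimap4 with 1424374_at that value was 3.16, against 2.19 without the block, and sample 6 had the highest +/+ signal. Leaving out 1 sample gave counts of 36 (+/+ sample 1), 12 (+/+ sample 5), 10 (+/+ sample 6), 9 (+/- sample 1), 28 (+/- sample 7) and 22 (+/- sample 9) in place of 44. For the -/- samples the counts were 116 (sample 4), 23 (sample 5) and 62 (sample 8). Cd4, Fn1, 1417185_at and the same pair of Klk1 probe sets passed under each of the 26 alternatives tried.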

How the data were processed

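RNA of 11 samples of sorted mouse marrow cells was measured on MOE430A and MOE430B arrays. The deposited signal intensity of each probe set is on a linear scale and comes from MAS5, per the submitters' processing notes, with no version given. The deposited run records supplied the order of the sort signs and the wash runs, which were taken as separate where hybridization times lay over 60 minutes apart. The number of arrays limits the precision.

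Signals were rescaled so that the trimmed mean of every array was 500 (2% removed at each end), and log2(signal + 32) was analysed. Probe sets were kept if at least 2 of the 11 arrays gave a signal over 100, and control probe sets were left out. For probe sets present on both chips the chip A values were used. Each chip was fitted by itself in R 4.3.3 with limma 3.58.1 (lmFit, eBayes with a mean-variance trend) on the 9 OGCsort samples, with Benjamini-Hochberg adjustment over both chips and a threshold of 0.05. Ptprc was also tested by exact permutation. Folds come from the log2 fold change. Where every sample of the lower group was under 100, the fold was computed against 100 and is written as "at least". For each gene 1 probe set was chosen, with preference for chip A, then for identifiers without a letter before _at, then for the highest mean. Other probe sets of a gene that passed are named as such. The scripts were tested on simulated data.

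Genes named in the text were Ptprc, up to 15 genes higher and 15 lower with the largest log2 fold change among those that passed without overlap, and, per list, the 5 members with the smallest p and the defining markers. Predicted genes and unnamed probe sets were skipped by this rule, and the probe sets beyond it that passed are given to account for all of them. There were 28 lists with 644 genes, of which 32 are in more than 1 list. The comparison and the lists were chosen with earlier results of these data known, so list counts are descriptions. Promoters are from RefSeq, GRCm38.p6. Symbols are from the platform annotation, which gives 1 gene for 20380 of 22626 probe sets on chip A and 14661 of 22511 on chip B. Alternatives covered the pseudocount, filter, normalization, eBayes settings, sample sets, blocks and leaving out each sample.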

Additional observations from a re-analysis of the deposited data

How the results depend on the processing

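All 44 probe sets kept their direction under each of the 26 alternatives. Their lack of overlap fixes this in advance when samples are left out and with the run block. It also does so for the pseudocounts, filters, eBayes settings, array weights and adjustment within each chip. The direction was free to change with quantile normalization and with the CPGSE +/+ samples, a separate set of +/+ sorts. The count that passed ranged widely around 44. It was 20 and 70 with pseudocounts of 16 and 64, 23 with no filter on low signal, 28 with a signal over 200 on at least 3 arrays, 34 with quantile normalization and 19 without the trend. Array weights gave 191, adjustment within each chip 79, the 6 samples of both groups alone 151 and all 11 samples 75. The 2 CPGSE +/+ samples used as the +/+ group gave 126, with 30 of the 44 among them. Both +/+ sets together gave 196, with 37 of the 44 among them. The run block gave 6, and the wash run alone, an alternative chosen after seeing the data, 7. Without sample 1 of both groups 17 passed, and leaving out 1 sample gave 9 to 116; leaving out a -/- sample was also added after seeing the data. On chip B, within the run and station that held both groups, limma called 0 probe sets (1363 at an unadjusted p under 0.05), and with the stations of that run pooled 1. Both counts were adjusted over chip B alone. No paired analysis was possible because the groups share only the sort number 1, so the sort number entered as a random replicate block, which gave 133 probe sets. The cause of these shifts was not tested. Ptprc did not pass under any alternative. Of the 44, 36 lost their call without at least 1 of the 6 samples and 12 without each of them; Hoxa9, one of these, kept a fold of 5.36 to 6.15 (5.8 with all samples).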
